A study of Mus musculus with 54 samples.

Results

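The clustered protocadherins are neural cell surface proteins encoded by the alpha, beta and gamma gene clusters, which lie one after another on mouse chromosome 18. Their expression was followed in R1 mouse embryonic stem cells differentiating in retinoic acid. The genes were chosen by symbol: Pcdha, Pcdhb or Pcdhg followed by a number, or by a, b or c and a number. A gene of that name was kept where at least 3 libraries held 1 FPKM or more. FPKM are fragments counted per length of transcript and per depth of library, so that levels of different genes can be set side by side. Of 21960 genes in the expression table, 57 had such a symbol and 52 passed: 11 of 13 alpha, 19 of 22 beta and 22 of 22 gamma genes.

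R1 is an established mouse embryonic stem cell line, and every library came from it. Per the labels, the cells were grown in medium with 15% serum replacement and LIF, the cytokine that holds them undifferentiated. They were aggregated in hanging drops for 48 h, and the embryoid bodies were then kept with 0.5 mM retinoic acid for up to 20 days. That dose is printed as the labels give it and could not be checked against another source. PolyA RNA was sequenced from 22 libraries, namely 7 of day 0, 3 each of days 2 and 4, 5 of day 10 and 4 of day 20. All groups share 1 genotype, and no untreated libraries of the later days were analysed here. The labels do not say whether day 0 stands before or after the hanging drops. The labels name no separate cultures behind the libraries of a day, so each p-value measures the spread between these libraries, which may be technical.

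Clustered protocadherins are cadherin-like proteins that bind like to like between cells. In the alpha and gamma clusters each variable exon has its own promoter and encodes the extracellular, transmembrane and near cytoplasmic parts, and is spliced to constant exons that all members of the cluster share. Beta genes are single exons without a constant part. In neurons most alternate members are switched on in few cells each, through a promoter choice that depends on CTCF, cohesin and DNA methylation, while the C-type genes at the ends of the alpha and gamma clusters are expressed more uniformly. The resulting mixtures of surface proteins are known for letting a neuron tell its own branches from those of others.

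The 5 genes below the filter were Pcdha8, with a highest value of 0.17 FPKM in any library, Pcdhb1 with 0.23, Pcdhac1 with 0.52, Pcdhb14 with 0.80 and Pcdhb9, which reached 1.0 FPKM in 1 library. Just inside the filter were Pcdha7 and Pcdhb13, which reached 1 FPKM in 5 libraries, Pcdhb4 in 6 and Pcdhb15 in 7, with highest values of 1.23, 1.42, 1.37 and 1.23 FPKM. RefSeq lists Pcdhgb8 as a transcribed pseudogene. Members of a cluster are near-identical over long stretches, and alpha and gamma members share their constant exons. How reads of shared sequence were divided between members therefore bears on every member's value, and the sums over a cluster are less exposed to that division than single members are. Values of Pcdha11 come in steps of 0.005 FPKM, while those of every other member have 2 decimals. A mean of a pair of entries of that symbol would give such steps, and no source used here says whether it is one, so Pcdha11 and its part in the alpha sum may be such a mean. Pcdha10 was not analysed here.

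The libraries followed the labelled course. Pou5f1, the transcription factor of pluripotent cells, fell from a mean of 864.6 FPKM at day 0 to 0.195 at day 20. Tubb3, a neuronal tubulin, was highest at day 4 with 688.1 FPKM. Gfap, the astrocyte filament protein, reached 184.6 FPKM at day 10 and 1413 at day 20, and Epcam, an epithelial adhesion protein, went from 25.03 FPKM at day 4 to 137.8 at day 20. The later days therefore hold mixtures of cell types, and in such bulk RNA fewer cells of a type cannot be told apart from less RNA per cell. Library sums over all genes ranged from 472122 to 678222 FPKM. Day-0 replicates 1 to 3 stood above replicates 4 to 7 in the summed gamma level, at 30.8 to 32.87 FPKM against 24.91 to 28.94. Some results that rest on day 0 are given for these sets apart, and the others pool them.

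The 3 clusters came on in a different order and to different heights. Summed over its members, the gamma cluster was already present at day 0, at 28.95 ± 3.33 FPKM (SD, n = 7), where the alpha cluster summed to 0.129 ± 0.068 and the beta cluster to 0.213 ± 0.096. Gamma genes thus made up 98.86% of the summed FPKM of all clustered protocadherins at day 0. By day 4 the beta cluster had reached 60.36 ± 0.155 FPKM (SD, n = 3) and the gamma cluster 66.77 ± 0.546, while the alpha cluster stood at 10.13 ± 0.275. As deposited, all 3 sums had their highest mean at day 10 (for beta, the order of days 4 and 10 turned under quantile normalization): 33.69 ± 0.299 FPKM for alpha, 77.37 ± 0.417 for beta and 179.0 ± 3.66 for gamma (SD, n = 5). At day 20 alpha was at 12.81 ± 0.593 FPKM, beta at 33.46 ± 2.04 and gamma at 159.0 ± 5.81 (SD, n = 4). No library of day 10 overlapped with one of day 4 or day 20 in any of the 3 sums.

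**Figure D1:**
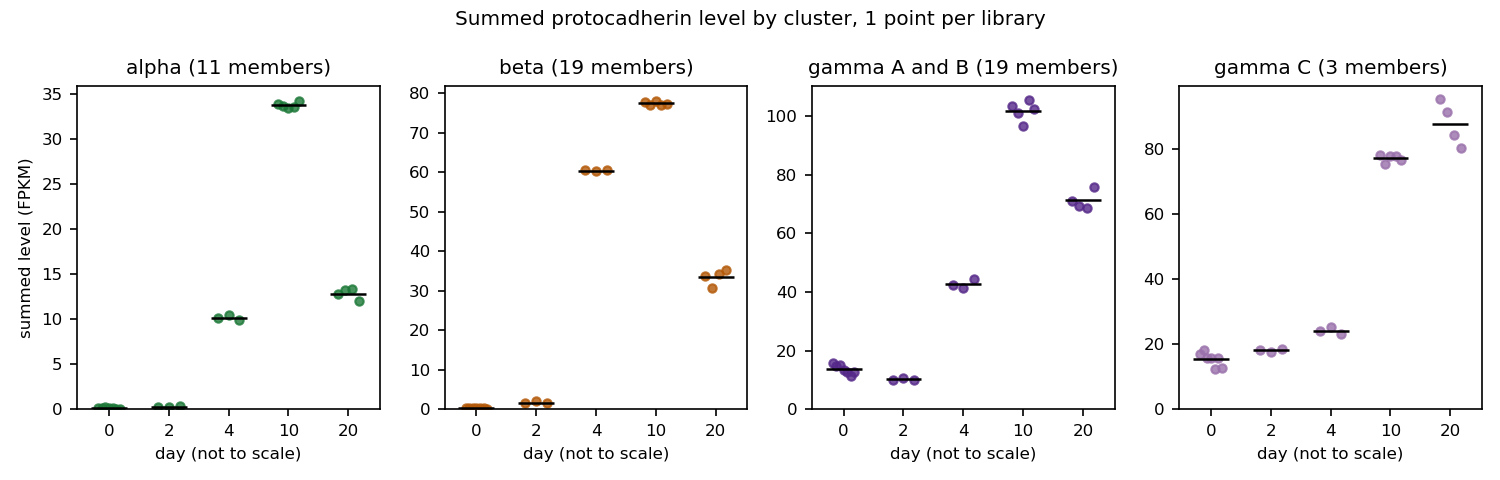
Summed FPKM of the alpha, beta, gamma A and B, and gamma C members in each library, by day. Points are libraries, bars are day means, each panel has its own linear axis from 0, and the days are not drawn to scale. As deposited, alpha, beta and gamma A and B are highest at day 10, and gamma C at day 20; under quantile normalization the beta sum is lower at day 10 than at day 4.

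The division of the total between the clusters moved with the days. The beta share went from 0.712% at day 0 and 5.38% at day 2 to 43.97% at day 4, and was 16.31% at day 20. The gamma share was at its lowest at day 4, with 48.65%, and stood at 77.45% at day 20. The alpha share was highest at day 10, at 11.62%, and never the largest. In each library of days 0 and 2, no alpha or beta gene reached 1 FPKM, against 4 to 8 gamma genes. At day 10, 11 of 13 alpha genes did so in every library, as did 19 or 20 of 22 beta genes and 21 or 22 of 22 gamma genes.

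**Figure D2:**
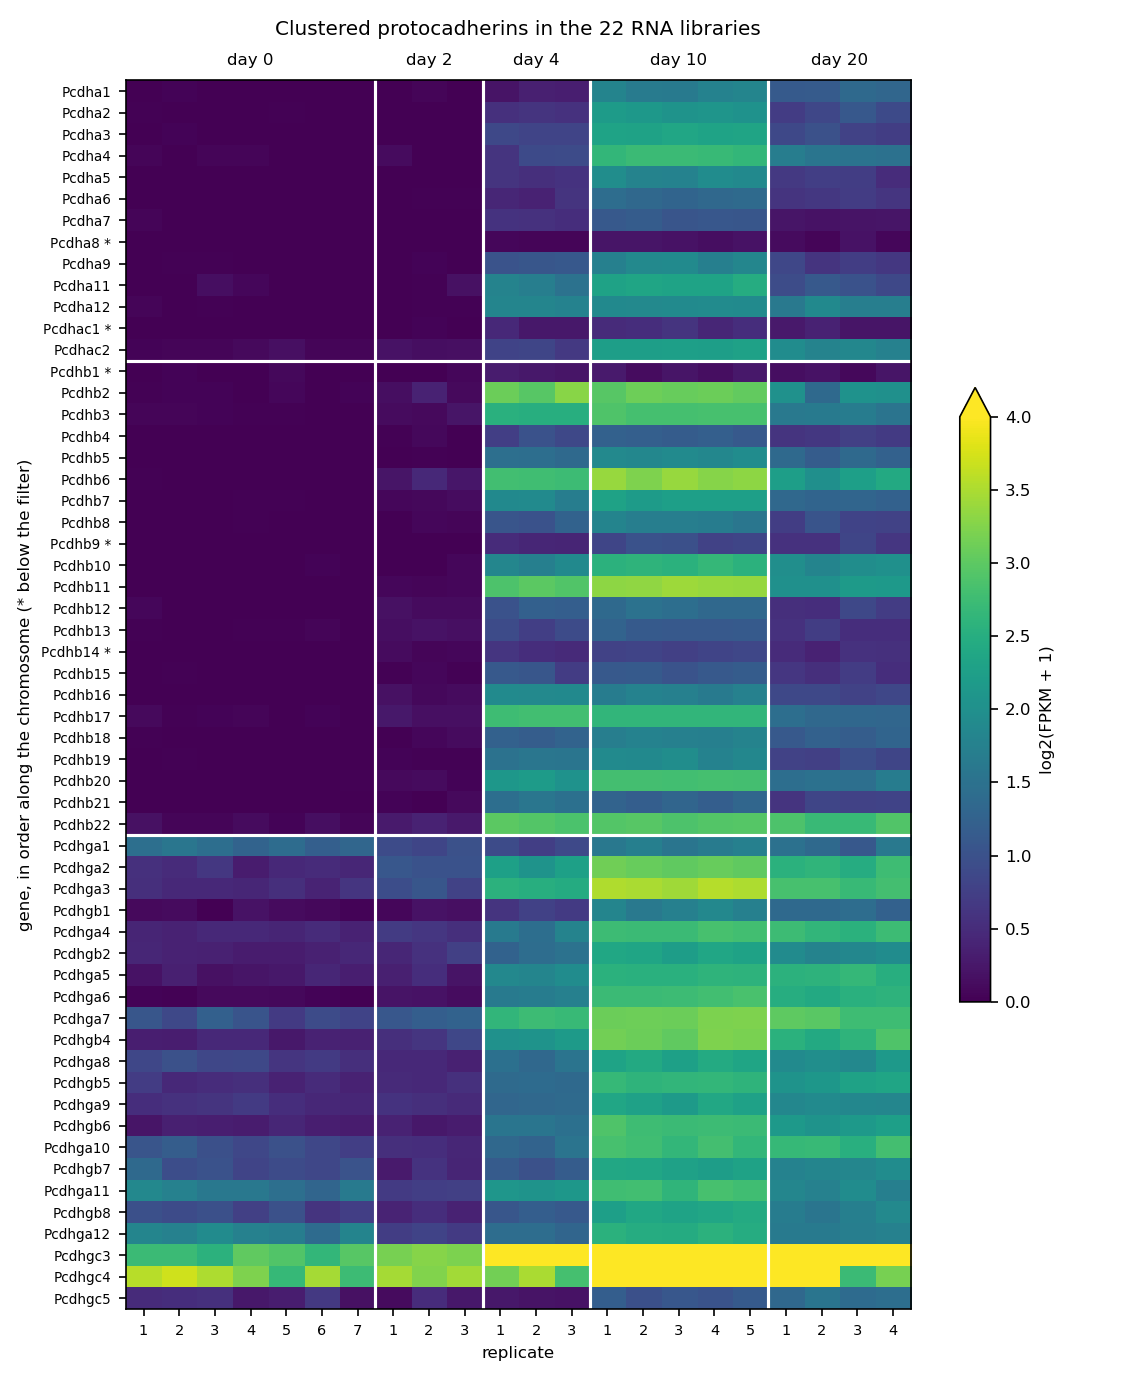
Level of every clustered protocadherin gene in the table, as log2(FPKM + 1), with genes in chromosomal order from top to bottom and libraries grouped by day from left to right; an asterisk marks the 5 genes below the filter and colours saturate at 4. The alpha and beta blocks are dark at days 0 and 2, while Pcdhgc3 and Pcdhgc4 are bright throughout.

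At day 0, gamma expression was carried by few genes. Pcdhgc4, a C-type gene known to be needed for the survival of certain neurons, had the highest median at day 0, 9.97 FPKM, with a range from 5.44 to 12.03. Pcdhgc3, the C-type gene best known from glia and epithelia, ranged from 4.92 to 7.13 FPKM with a median of 5.61. In replicates 5 and 7 it was above Pcdhgc4, at 6.56 and 6.75 FPKM against 5.44 and 5.68. Together with Pcdhgc5 these C-type genes summed to 15.3 ± 2.15 FPKM (SD, n = 7), somewhat more than the 13.65 ± 1.63 of the 19 A and B genes. In replicates 5 and 7 the C-type sum was slightly the lower, at 12.25 and 12.56 FPKM against 12.66 and 12.73. The day-0 spread of Pcdhgc4 followed the split of the libraries, with 10.36 to 12.03 FPKM in replicates 1 to 3 and lower values, 5.44 to 9.97, in replicates 4 to 7. Pcdhgc3 did not share that order, with 4.92 to 5.61 FPKM against 5.28 to 7.13. Among A and B genes the highest day-0 medians belonged to Pcdhga12 with 2.40 FPKM and Pcdhga11 with 2.05, which stand near the C-type end of the array.

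From day 0 to day 2, gamma genes changed in both directions. Differences were tested with limma on log2(FPKM + 1) over all 22 libraries, with adjusted p-values after Benjamini and Hochberg over all genes tested; a call means an adjusted p below 0.05. Of the 22 gamma members 8 were called higher and 7 lower. Over the 52 members of all clusters the counts were 14 higher and 7 lower, where 42.0% of the 14982 genes tested were called higher and 32.1% lower. Taken over 52, both shares lie below those of all genes. Taken over 22, neither gamma count exceeds the share of all genes, and no more is read from these counts. With a pseudocount of 0.1 in place of 1, 23 members were called higher, against 43.5% of all genes, and the share of members called higher was no longer the lower one. When values were quantile normalized, which forces all libraries to 1 distribution, 10 members were called higher and 11 lower. Of the gamma members 3 were then called higher and 11 lower, with a median change of -0.13. The balance of gamma rises and falls thus depends on the scaling.

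Most of the falls lay toward the C-type end of the gamma array. Pcdhga12 ranged from 1.64 to 2.82 FPKM at day 0 and measured 0.65, 0.75 and 0.60 FPKM at day 2, with no overlap between days. Its change was -1.01 ± 0.08 (SE) on the log2(FPKM + 1) scale, with an adjusted p of 1.69e-10. Pcdhga11 went from 1.46 to 2.63 FPKM at day 0 to 0.60, 0.67 and 0.69 at day 2, a change of -0.88 ± 0.09 (adjusted p = 7.41e-09). The 5 consecutive genes from Pcdhga10 to Pcdhga12 in chromosomal order were all called lower, Pcdhgb7 by -0.57 ± 0.09, Pcdhga10 by -0.45 ± 0.08 and Pcdhgb8 by -0.42 ± 0.08. The other two called lower were Pcdhga8, by -0.34 ± 0.08, and Pcdhga1, the first gene of the array, by -0.47 ± 0.09. This grouping by position was noticed after the values were seen.

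Most of the rises lay earlier in the array. They are given as deposited, with 8 gamma members called higher, where quantile normalization left 3. Pcdhga2 ranged from 0.24 to 0.56 FPKM at day 0 and measured 1.13, 1.01 and 1.0 at day 2, a change of 0.55 ± 0.07 (adjusted p = 3.21e-07). Pcdhga3 ranged from 0.32 to 0.54 FPKM and then measured 0.93, 1.09 and 0.72, a change of 0.44 ± 0.06 (adjusted p = 1.44e-06). In both genes all 3 day-2 libraries were above all 7 day-0 libraries. Pcdhgb4, Pcdhga7, Pcdhgb2, Pcdhga4 and Pcdhga6, which all lie before Pcdhga8, were called higher by 0.12 to 0.30. The eighth was Pcdhgc3, which measured 8.08, 8.64 and 8.26 FPKM at day 2 and rose by 0.43 ± 0.08 (adjusted p = 4.14e-05). Pcdhgc4 and Pcdhgc5 were not called, with changes of 0.11 ± 0.27 and -0.14 ± 0.09. The day-2 mean of Pcdhgc4, 9.46 FPKM, lay below that of day-0 replicates 1 to 3, 11.1, and above that of replicates 4 to 7, 7.37.

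**Figure D3:**
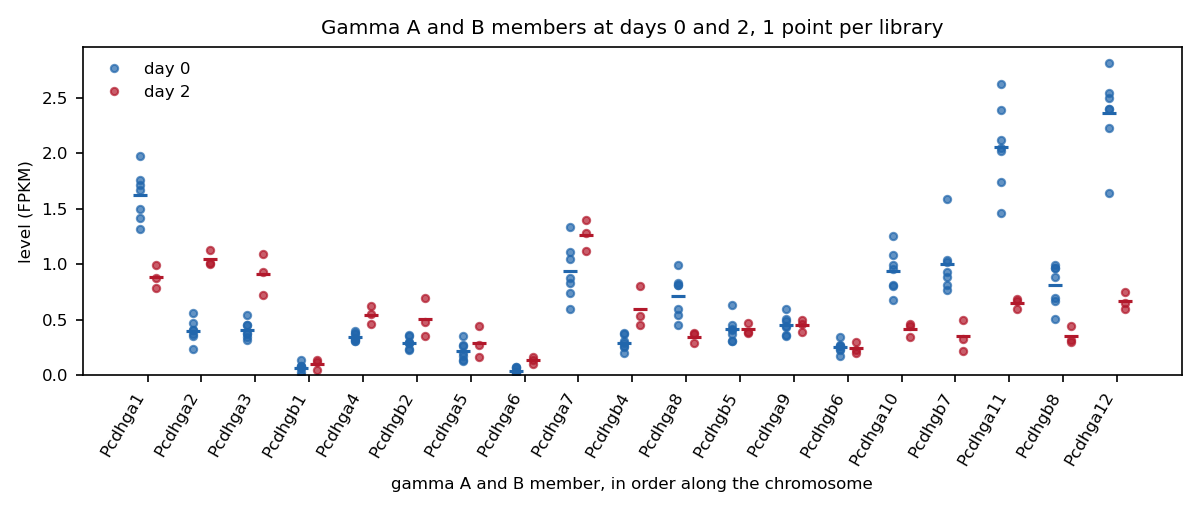
FPKM of each gamma A and B gene at day 0 (blue, 7 libraries) and day 2 (red, 3 libraries), in chromosomal order from left to right; points are libraries and bars are means. The red points lie above the blue ones for Pcdhga2 and Pcdhga3 and below them for the 5 genes from Pcdhga10 to Pcdhga12.

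The sum of all gamma members was 28.95 FPKM at day 0 and 28.2 ± 0.252 at day 2, a difference of -0.03 on the log2(sum + 1) scale against a pooled SD of 0.16. Against day-0 replicates 4 to 7 alone the sign turned, to 0.09, and under quantile normalization the difference was -0.37. The A and B genes went from 13.65 to 10.18 FPKM in sum and the C-type genes went from 15.3 to 18.02, with ranges of 12.25 to 18.06 at day 0 and 17.57 to 18.34 at day 2 that overlapped. Alpha genes gave no call at this step, and 6 beta genes were called higher, all still below 0.4 FPKM in every library. The largest of these were Pcdhb6, by 0.30 ± 0.07, and Pcdhb22, by 0.22 ± 0.06, with day-2 values of 0.17, 0.37 and 0.18 and of 0.22, 0.31 and 0.21 FPKM. Values this low come from few reads. Over this step 9 of 9 pluripotent cell markers were called lower, from 4798 to 5104 FPKM in sum to 639.3 to 706.5, and 5 of 9 neural progenitor markers were called higher and 2 lower. The part of these changes in the gamma result was not tested.

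Between day 2 and day 4 nearly the whole family rose. Called higher were 49 of 52 members, all 11 alpha, all 19 beta and 19 of 22 gamma genes, and none was called lower. Over all genes tested 38.0% were called higher and 34.0% lower. At least a 2-fold rise, meaning a change of 1 or more on the log2(FPKM + 1) scale, was seen in 28 members, 16 of them beta, 9 gamma and 3 alpha, where 13.5% of all genes rose that much. Alpha and beta members passed the filter only with the help of days 4 to 20. So did all gamma members but Pcdhga1, Pcdhga2, Pcdhga7, Pcdhgb7, Pcdhga11, Pcdhga12, Pcdhgc3 and Pcdhgc4. The filter thus favoured a rise from days 0 and 2 in such members, and these counts support nothing by themselves. It left out no gamma gene. Without it, 13 of 13 alpha, 22 of 22 beta and 19 of 22 gamma genes were called higher. The median change was 1.74 for beta, 0.89 for gamma and 0.60 for alpha members, beside 0.01 for all genes tested. The order of alpha and gamma, in these medians and in the 2-fold counts, depends on the pseudocount: with 0.1 the medians were 4.03 for beta, 2.57 for alpha and 1.74 for gamma, and 19, 11 and 18 members rose 2-fold. The alpha sum likewise changed by 3.15 on the log2(sum + 1) scale and the gamma sum by 1.22.

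The beta genes gave the largest changes. Pcdhb2 measured 0.11, 0.31 and 0.07 FPKM at day 2 and 7.63, 6.78 and 8.80 at day 4, a change of 2.91 ± 0.13 (adjusted p = 7.85e-15). Pcdhb11 measured 0.05, 0.04 and 0.05 FPKM and then 6.40, 6.92 and 6.54, a change of 2.86 ± 0.06 (adjusted p = 6.05e-21). Pcdhb22, the last beta gene before the gamma cluster, reached 6.96, 6.62 and 6.32 FPKM and changed by 2.61 ± 0.07. In these 3 genes every day-4 library was far above every day-2 library. The smallest change among beta members was that of Pcdhb13, 0.69 ± 0.06.

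Among alpha genes those at the far end of the alternate array led. Pcdha12 went from 0 to 0.02 FPKM at day 2 to 2.54, 2.54 and 2.41 at day 4, a change of 1.79 ± 0.06 (adjusted p = 2.36e-17). Pcdha11 reached 2.47, 2.29 and 1.85 FPKM and changed by 1.61 ± 0.08, and Pcdha9 changed by 1.05 ± 0.06. These were the 3 alpha genes at 1 FPKM or more at day 4, and all 8 other alpha members lay below that level in all 3 libraries. Pcdha1, the first gene of the array, changed least among the alpha members, by 0.28 ± 0.07. Pcdha12 alone made up 24.65% of the alpha sum at day 4, against 8.16% at day 10.

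Gamma genes rose from the levels they already had. Pcdhga3 reached 4.97, 4.66 and 4.48 FPKM and changed by 1.58 ± 0.07 (adjusted p = 2.26e-14). Pcdhga5 measured 0.27, 0.44 and 0.16 FPKM at day 2 and 2.65, 2.54 and 2.86 at day 4, a change of 1.52 ± 0.08. Pcdhga11, after its fall at day 2, rose by 1.36 ± 0.10 to 3.27, 3.14 and 3.32 FPKM. The 3 members without a call were Pcdhga1 (-0.07 ± 0.11) and the C-type genes Pcdhgc4 (-0.23 ± 0.32) and Pcdhgc5 (-0.07 ± 0.11), while Pcdhgc3 rose by 0.85 ± 0.09 to 15.83, 14.90 and 16.89 FPKM.

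Against day 0, day 4 gave 47 members called higher and 3 lower, beside 47.0% and 35.5% of all genes. The 3 below their day-0 level were Pcdhga1 (-0.54 ± 0.09), Pcdhga12 (-0.35 ± 0.08) and Pcdhgc5 (-0.20 ± 0.09), all gamma genes. When libraries were rescaled to the same sum, the count called lower was 1. The filter favoured rises here as in the step from day 2, so the count called higher supports nothing by itself. Without a filter, 52 of 57 genes of the family were called higher and 2 lower. Comparisons with day 0 share the day-0 libraries with one another.

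Neuron markers moved with this step. All 13 of 13 were called higher from day 2 to day 4, and their summed level went from 34.1 to 34.79 FPKM to 2875 to 2892. Of 9 neural progenitor markers 6 were called higher and 3 lower, and their sum was 529.2 to 571.9 FPKM at day 2 and 1390 to 1472 at day 4. The part of cell type mixture in the protocadherin rise was not tested.

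From day 4 to day 10 the alpha and gamma clusters went on rising and the beta genes changed less. Called higher were 22 of 22 gamma, 10 of 11 alpha and 13 of 19 beta genes, together 45 of 52 members, and 3 beta genes were called lower. Over all genes 41.4% were called higher and 32.3% lower. Of these members 5 alpha (Pcdha2, Pcdha3, Pcdha5, Pcdha6 and Pcdha7) and 3 beta genes (Pcdhb4, Pcdhb13 and Pcdhb15) passed the filter only with the help of day 10, so that the filter bears on their changes to and from that day. Without a filter, 13 of 13 alpha, 15 of 22 beta and 22 of 22 gamma genes were called higher, and 3 beta genes lower. With quantile normalization the member counts were 35 higher and 11 lower, with 4 beta genes higher and 10 lower, and rescaling to the same sum gave 48 and 1. At least 2-fold rises were seen in 12 gamma and 6 alpha members and in no beta member, together 18, where 13.1% of all genes rose that much. Median changes were 1.30 for alpha, 1.07 for gamma and 0.32 for beta members, beside 0.07 for all genes. Without a filter they were 0.89 for alpha, 1.07 for gamma and 0.32 for beta genes, beside 0.03 for all genes. The order of alpha and gamma thus depends on the filter.

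**Figure D4:**
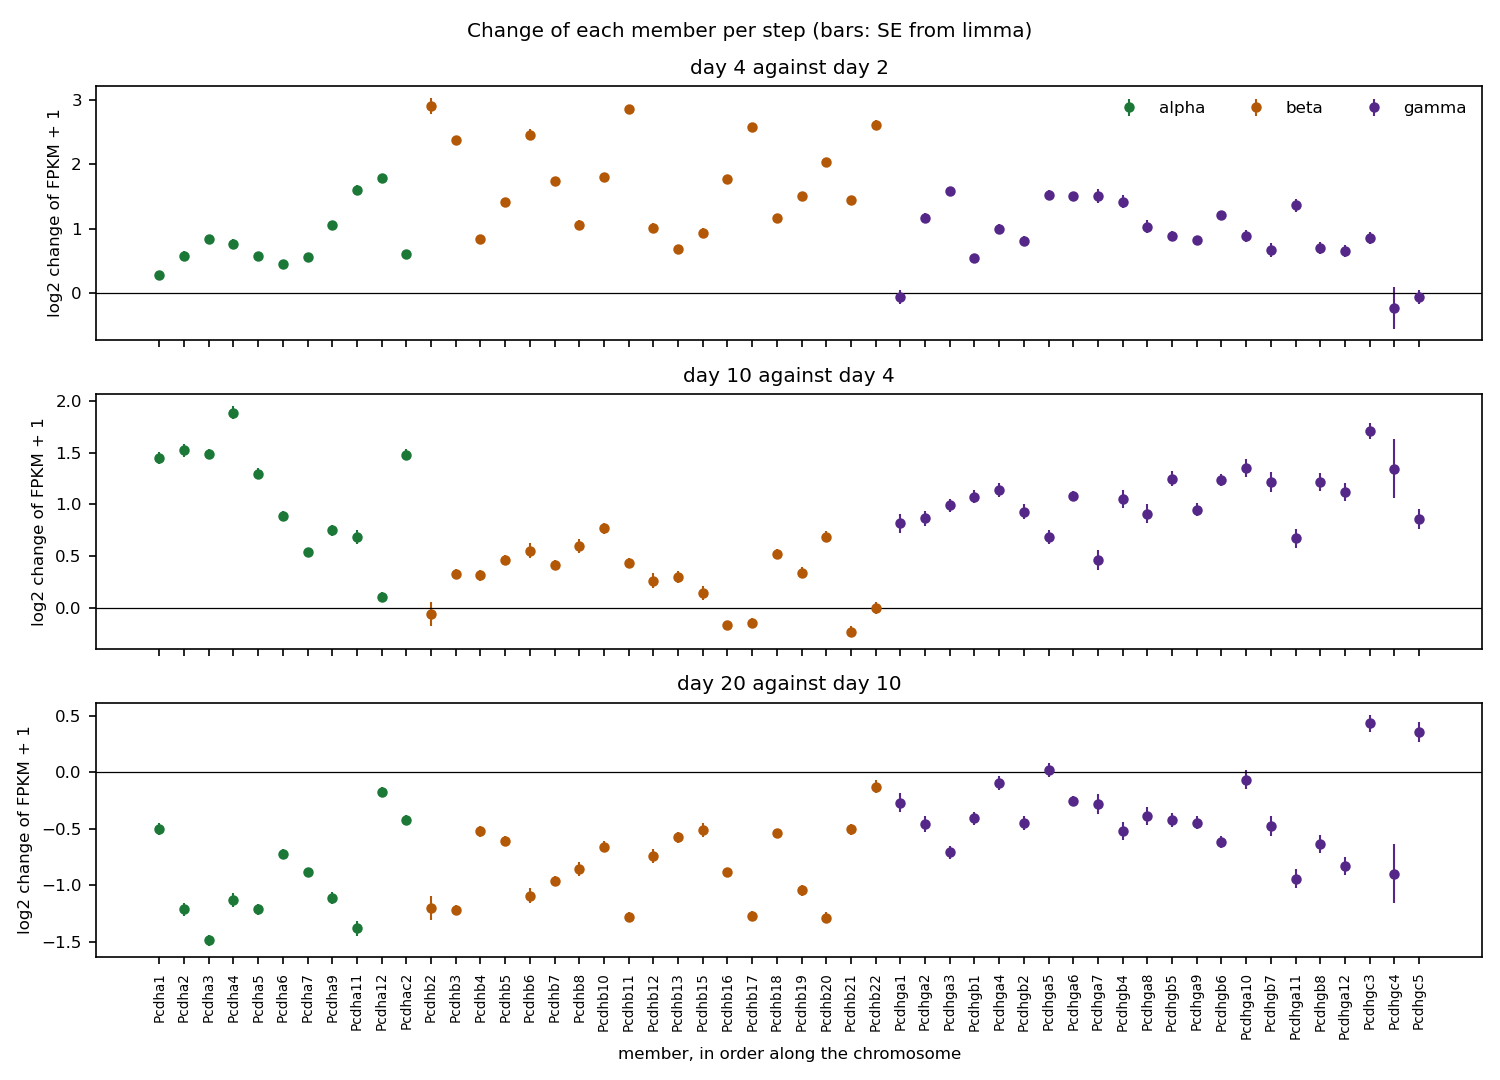
Change of each of the 52 members on the log2(FPKM + 1) scale, with SE from limma, in chromosomal order, for day 4 against day 2, day 10 against day 4 and day 20 against day 10. Beta genes (orange) have the largest changes in the top panel and changes from -0.23 to 0.77 in the middle one, and at day 20 Pcdhgc3 and Pcdhgc5 are the clearest points above 0.

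In the alpha cluster the order of the genes turned. Pcdha4 measured 0.51, 0.87 and 0.88 FPKM at day 4 and 5.30, 5.61, 5.63, 5.49 and 5.26 at day 10, a change of 1.89 ± 0.07 (adjusted p = 1.27e-16). It was the highest alpha gene at day 10, with 16.2% of the alpha sum. Pcdha2 went from 0.47, 0.52 and 0.49 FPKM to 3.59, 3.4, 3.16, 3.24 and 3.11, a change of 1.52 ± 0.06 (adjusted p = 1.96e-15). Pcdhac2, the C-type gene next to the alpha constant exons, rose by 1.48 ± 0.05 to 3.73 to 3.87 FPKM. Pcdha12, the leader at day 4, had 2.69 to 2.80 FPKM at day 10 and was not called (0.10 ± 0.05, adjusted p = 0.0763). Its direction depends on the scaling. It was called higher with libraries rescaled to the same sum (0.23) and lower under quantile normalization (-0.36). At day 4 the alpha members stood at a median of 19.61% of their own day-10 mean, from 9.75% for Pcdha1 to 90.85% for Pcdha12.

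Beta members had largely reached their level by day 4, with a median of 71.18% of their day-10 mean and a range from 50.6% for Pcdhb10 to 130.1% for Pcdhb21. Pcdhb10, the gene with the largest beta rise, went from 2.57, 2.32 and 2.74 FPKM to 4.93, 5.04, 4.88, 5.32 and 4.96, a change of 0.77 ± 0.05 (adjusted p = 1.54e-11). Pcdhb20 rose by 0.69 ± 0.05 to 5.89 to 6.08 FPKM. Pcdhb21 was lower at day 10, with 1.29 to 1.49 FPKM after 1.71, 1.97 and 1.77, a change of -0.23 ± 0.05 (adjusted p = 0.000518). Pcdhb17 fell by 0.15 and Pcdhb16 by 0.17 on the same scale; both calls were lost with a pseudocount of 0.1 and with libraries rescaled to the same sum. Pcdhb2, Pcdhb15 and Pcdhb22 were not called, and for Pcdhb22 the change was 0.00 ± 0.06.

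The summed beta level was higher at day 10 by 0.35 on the log2(sum + 1) scale, which turned to -0.07 under quantile normalization, so its direction depends on the scaling. Under the same change of scaling the alpha and gamma sums were still higher, by 0.83 and 1.2. These sums carry no test.

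Gamma genes rose across the array. Pcdhgc3 went to 54.82, 52.71, 50.83, 58.00 and 54.87 FPKM, a change of 1.71 ± 0.08 (adjusted p = 4.03e-14), and was the most abundant clustered protocadherin. Pcdhga10 went from 1.55, 1.41 and 1.90 FPKM to 6.11, 5.84, 5.27, 6.02 and 5.25, a change of 1.36 ± 0.09 (adjusted p = 7.01e-12). Pcdhga3 was the highest of the A and B genes at day 10, with 9.75 to 10.76 FPKM. Pcdhgc4, without a call at the earlier steps, rose by 1.35 ± 0.29 to 18.64 to 25.80 FPKM (adjusted p = 0.000246), and Pcdhgc5 rose by 0.86 ± 0.10 to 0.96 to 1.30 FPKM. The smallest gamma change was that of Pcdhga7, 0.46 ± 0.10.

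Most neuron markers fell over this step, with 8 of 13 called lower and 4 higher, and their summed level went from 2875 to 2892 FPKM at day 4 to 1307 to 1340 at day 10. Astrocyte markers rose, with 7 of 9 called higher and none lower, and a sum that went from 69.6 to 80.27 FPKM to 981.8 to 1076. Of 8 oligodendrocyte lineage markers 7 were called higher, as were 8 of 8 mesenchymal and smooth muscle markers, whose sum went from 4.70 to 5.68 FPKM to 91.85 to 105.9. Of 9 neural progenitor markers 6 were called lower and 2 higher, though their sum went from 1390 to 1472 FPKM to 1982 to 2128. The part of these changes in the protocadherin result was not tested.

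As deposited, most of the family had its highest mean at day 10. Against day 0, all 52 members were called higher and none lower, beside 54.1% and 36.4% of all genes. Under quantile normalization 49 were called higher and 2 lower, Pcdhga1 by -0.70 and Pcdhga12 by -0.19. No alpha or beta member, and few gamma members, reached 1 FPKM in any day-0 library. The filter thus favoured rises over day 0, and these counts support nothing by themselves. Without a filter, 57 of 57 genes of the family were called higher. Since the filter kept some members through day 10 alone, peaks are counted over every gene of the family: 13 of 13 alpha, 16 of 22 beta and 19 of 22 gamma genes had their highest day mean at day 10. These peaks were counted on values as deposited only. Under quantile normalization 10 beta members were called lower and 4 higher from day 4 to day 10, and Pcdha12 was called lower. The peak day of many beta genes thus depends on the scaling. The beta members with their highest mean at day 4 were Pcdhb2, Pcdhb16, Pcdhb17, Pcdhb21 and Pcdhb22, together with Pcdhb1 from below the filter, and for Pcdhb2 and Pcdhb22 the day-4 and day-10 libraries overlapped. The 3 gamma genes highest at day 20 were Pcdhga5, Pcdhgc3 and Pcdhgc5, of which Pcdhga5 overlapped between days 10 and 20.

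From day 10 to day 20 most members fell, alpha and beta genes further than gamma genes. Called lower were 47 of 52 members: 11 of 11 alpha, 19 of 19 beta and 17 of 22 gamma genes. Called higher were 2, both gamma C-type genes. Over all genes 38.1% were called lower and 37.2% higher. The filter bears on the alpha and beta counts, as at the step before; without it, 13 of 13 alpha, 21 of 22 beta and 17 of 22 gamma genes were called lower. A fall of 1 or more on the log2(FPKM + 1) scale was seen in 13 members, 7 beta and 6 alpha, where 6.31% of all genes fell that much. That scale understates falls of low genes: in plain FPKM, 8 alpha, 15 beta and 2 gamma members (Pcdhga11 and Pcdhga12) kept under 50% of their day-10 mean. Median changes of the members were -1.11 for alpha, -0.86 for beta and -0.43 for gamma members, beside -0.02 for all genes. Without a filter they were -0.88 for alpha, -0.70 for beta and -0.43 for gamma genes, beside -0.003 for all genes. At day 20 alpha members kept a median of 26.29% of their day-10 mean, beta members 38.59% and gamma members 67.96%. The filter bears on these medians too. The 5 alpha members that needed day 10 to pass kept 14.06% (Pcdha7) to 35.76% (Pcdha6). Below the filter, Pcdha8 and Pcdhac1 kept 52.36% and 49.42%. The order of alpha and beta in these medians was therefore not settled apart from the filter.

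Alpha genes ranged widely in what they kept. Pcdha3 measured 3.98, 3.92, 4.17, 4.00 and 4.07 FPKM at day 10 and 0.83, 0.99, 0.73 and 0.65 at day 20, a change of -1.49 ± 0.05 (adjusted p = 1.51e-17). Pcdha11 fell to 0.895, 1.165, 1.01 and 0.83 FPKM, a change of -1.38 ± 0.06 (adjusted p = 1.89e-14). Pcdha7 kept the least, 14.06 ± 0.71% (SE) of its day-10 mean, at 0.14 to 0.17 FPKM. Pcdha12 kept the most, 84.88 ± 4.89%, with 2.08, 2.71, 2.27 and 2.27 FPKM, of which 1 overlapped with day 10. Its change of -0.17 ± 0.05 (adjusted p = 0.0019) was no longer called with a pseudocount of 0.1. Pcdhac2 kept 68.07 ± 2.88%, at 2.86, 2.44, 2.59 and 2.38 FPKM, and made up 20.06% of the alpha sum against 11.2% at day 10.

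Among beta members Pcdhb22 stood apart from the others in what it kept. It measured 6.58, 6.78, 6.37, 6.58 and 6.71 FPKM at day 10 and 6.38, 5.54, 5.5 and 6.5 at day 20, or 90.55 ± 4.15% of its day-10 mean. Its change of -0.13 ± 0.05 (adjusted p = 0.038) was lost without any single one of day-10 replicates 1, 2, 4 or 5 or day-20 replicates 2 or 3, at values from -0.13 to -0.09. With a pseudocount of 0.1 it was not called (-0.14). With libraries rescaled to the same sum (-0.30) and under quantile normalization (-0.31) it was called lower. Pcdhb22 made up 8.54% of the beta sum at day 10 and 17.88% at day 20. The next highest share kept in the cluster was 56.26 ± 2.46%, for Pcdhb10.

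The other beta members were called lower as well. Pcdhb20 went from 5.89 to 6.08 FPKM to 1.72, 1.80, 1.75 and 2.21, a change of -1.28 ± 0.05 (adjusted p = 6.09e-16). Pcdhb11 went from 9.0, 9.05, 9.63, 9.46 and 9.36 FPKM to 3.01, 3.02, 3.52 and 3.44, a change of -1.28 ± 0.05 (adjusted p = 1.77e-16). In both genes no library of day 20 came near the day-10 range. Pcdhb19 kept the least of the cluster, 29.39 ± 2.28%, and 11 or 12 of 22 beta genes were still at 1 FPKM or more in each library.

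All 22 gamma genes were at 1 FPKM or more in every day-20 library. As deposited, the 3 A genes without a call kept nearly their full level: Pcdhga5 with 4.96, 5.03, 5.32 and 4.68 FPKM (0.02 ± 0.06), Pcdhga10 with 5.42, 5.48, 4.77 and 5.95 (-0.07 ± 0.08) and Pcdhga4 (-0.09 ± 0.06). With libraries rescaled to the same sum all 3 were called lower, by -0.14, -0.23 and -0.26 in that order. Under quantile normalization Pcdhga10 (-0.24) and Pcdhga4 (-0.28) were called lower and Pcdhga5 (-0.13) was not called. The largest fall among A and B genes was that of Pcdhga11, to 2.58, 2.37, 2.84 and 2.32 FPKM, a change of -0.94 ± 0.08 (adjusted p = 1.55e-09). Pcdhga12 and Pcdhga3 followed, with -0.83 ± 0.08 and -0.71 ± 0.06. Pcdhga11 and Pcdhga12 also had the largest falls at day 2.

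The C-type genes parted at day 20. Pcdhgc3 measured 75.43, 71.51, 77.06 and 70.42 FPKM, above all day-10 libraries, and rose by 0.43 ± 0.08 (adjusted p = 2.42e-05). Its share of the gamma sum went from 30.29 ± 0.93% (SD, n = 5) to 46.34 ± 2.69% (SD, n = 4). Without Pcdhgc3 the gamma sum went from 124.7 ± 1.42 to 85.41 ± 6.65 FPKM. Pcdhgc5, a gene of low level, went from 1.30, 0.96, 1.12, 1.04 and 1.19 FPKM to 1.56, 1.93, 1.64 and 1.73, a change of 0.36 ± 0.09 (adjusted p = 0.00134). That call was lost with a pseudocount of 0.1, at a larger change of 0.57, and under quantile normalization, at 0.04.

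Pcdhgc4 was the least steady member. It measured 18.19, 17.81, 5.64 and 8.07 FPKM in the 4 day-20 libraries, after 22.08, 21.54, 25.80, 18.64 and 20.50 at day 10. The first 2 libraries lay just under the day-10 range and the other two far below it. The change of -0.90 ± 0.26 (adjusted p = 0.00422) kept its call without any single day-20 library, at values from -1.12 to -0.61. The neighbouring Pcdhgc3 showed no such split, and neither did the gamma A and B sums of the same libraries, with 71.19, 69.41, 68.74 and 75.74 FPKM.

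**Figure D5:**
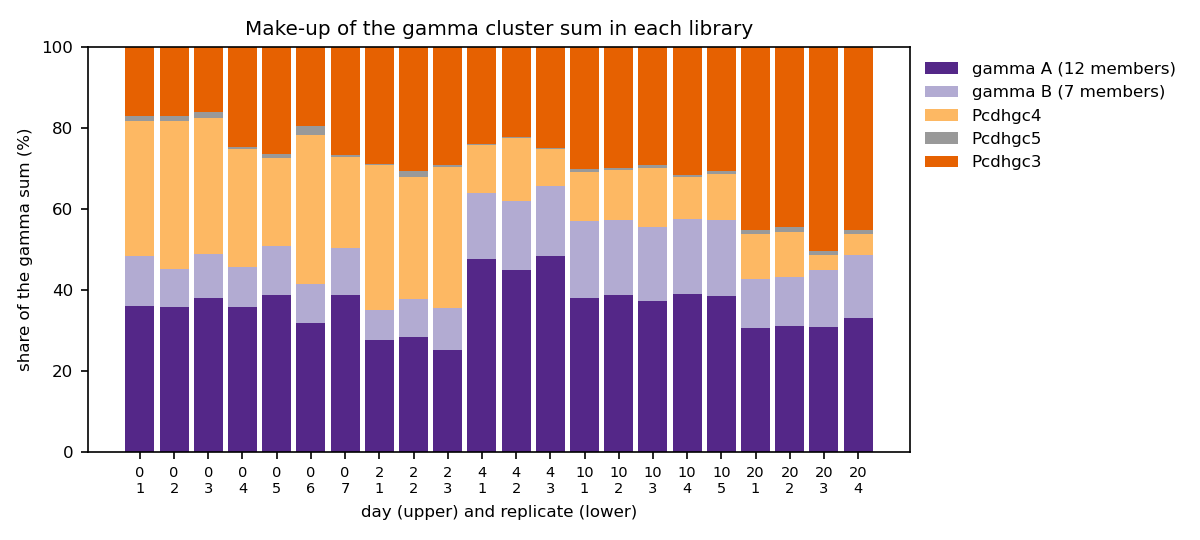
Percent of the summed gamma level in each library that came from A genes, B genes, Pcdhgc4, Pcdhgc5 and Pcdhgc3; bars are single libraries, ordered by day and replicate. Each band compared with itself over the days, that of Pcdhgc4 is widest at days 0 and 2 and that of A genes at day 4. The Pcdhgc3 band is widest at day 20, where the Pcdhgc4 band is narrow in replicates 3 and 4.

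Against day 0, 49 members were called higher at day 20 and none lower, beside 55.3% and 35.5% of all genes. Quantile normalization gave 44 higher and 5 lower. As in the other comparisons with day 0, the filter favoured rises, and the count called higher supports nothing by itself. Without a filter, 54 of 57 genes of the family were called higher and none lower. Pcdhgc3 had the largest difference, 3.43 ± 0.07. The 3 without a call were the gamma genes Pcdhga1 (0.01 ± 0.08), Pcdhga12 (-0.06 ± 0.07) and Pcdhgc4 (0.33 ± 0.25).

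Markers of several cell types moved over the same step. Of 13 neuron markers 12 were called lower and 1 higher, and their sum went from 1307 to 1340 FPKM to 496.9 to 527.1. Of 9 astrocyte markers 7 were called higher, with a sum of 981.8 to 1076 FPKM at day 10 and 2836 to 3064 at day 20. All 8 epithelial markers were called higher, from 241.1 to 265.8 FPKM in sum to 1946 to 2157, and 6 of 8 oligodendrocyte lineage markers were, from 381.6 to 443.5 to 1727 to 2666. Of 9 neural progenitor markers 8 were called lower, from 1982 to 2128 FPKM in sum to 1362 to 1494, and 7 of 8 mesenchymal and smooth muscle markers were called higher, from 91.85 to 105.9 to 235.4 to 264.5. The part of these changes in the fall of the alpha and beta genes, or in the rise of Pcdhgc3, was not tested.

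Genes known to act in protocadherin promoter choice gave more falls than rises at days 2, 10 and 20. Of a list of 23, comprising CTCF, cohesin and its regulators, DNA methylation enzymes and repressors, 14 were called lower and 6 higher at day 2, 6 lower and 8 higher at day 4, 18 lower and 1 higher at day 10 and 11 lower and 3 higher at day 20. At these steps 32.1%, 34.0%, 32.3% and 38.1% of all genes were called lower, and 42.0%, 38.0%, 41.4% and 37.2% higher. Ctcf, which binds the alternate promoters, went from a mean of 82.12 FPKM at day 0 to 61.97, 62.51, 38.68 and 34.52 on the later days. Rad21, a cohesin subunit, went from 145.1 to 53.67 FPKM over the course. Dnmt3b, which methylates the promoters in the early embryo, fell from 40.54 FPKM at day 0 to 21.32, 5.47, 2.05 and 1.59. Rest, the repressor of neuronal genes in other cells, measured 77.60, 15.75, 6.38, 4.02 and 12.28 FPKM, and its rise from day 10 to day 20 was 1.40 ± 0.05 (adjusted p = 1.78e-16). Tet3, a DNA demethylating enzyme, rose by 1.61 ± 0.06 at day 4.

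Non-clustered protocadherins, which are encoded singly at other places and bind by themselves, rose mainly at days 4 and 10. Of 11 tested 3 were called higher and none lower at day 2, 10 and none at day 4, 9 and 1 at day 10 and 4 and 6 at day 20. Of all genes 38.0% were called higher at day 4 and 41.4% at day 10, as given above. Pcdh10 had means of 0.0843, 0.0967, 5.23, 33.80 and 21.17 FPKM by day. Pcdh7 rose by 3.33 ± 0.07 at day 4, from 0.09 to 9.97 FPKM. Pcdh8 was highest at day 4, with 14.01 FPKM, and fell by 1.21 on the log2(FPKM + 1) scale from day 10 to day 20. Pcdh1, a protocadherin also known from epithelia, and Pcdh9 were highest at day 20, with 52.68 and 34.17 FPKM.

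Partners of the proteins rose mainly at day 4. Of 18 genes for signalling partners, actin regulators and the proteases that cut protocadherins, 8 were called higher and 6 lower at day 2, 14 and 2 at day 4, 10 and 3 at day 10 and 7 and 6 at day 20. At days 2 and 20 these counts are near the shares of all genes just given, and no more is read from them. Fyn, a kinase bound by alpha protocadherins, had means of 11.94, 18.24, 61.98, 96.65 and 121.0 FPKM. Adam10, the protease that sheds their extracellular part, went from 16.58 to 97.41 FPKM. Nlgn1, a synaptic adhesion protein that gamma protocadherins bind, was highest at day 10, with 10.07 FPKM. Wasf1, a subunit of the actin regulating WAVE complex, fell by 0.91 from day 10 to day 20.

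Genes beside the clusters on the chromosome gave calls in both directions. Of 4 tested, 2 were called higher and 2 lower at day 2, 1 and 3 at day 4, none and 2 at day 10, and 2 and 1 at day 20. With so few genes these counts are not read against the shares of all genes given above. Taf7, which lies between the beta and gamma clusters, had means of 49.34, 35.86, 22.15, 20.43 and 15.73 FPKM by day. Zmat2, on the alpha side, went from 64.46 FPKM at day 0 to 35.89 at day 10 and 40.80 at day 20, and Diaph1, beyond the gamma cluster, from 47.93 to 12.24 and 22.13. Hdac3, on the same side as Diaph1, went from 33.67 FPKM at day 0 to 54.97 at day 4 and 53.38 at day 20. Slc25a2, between the beta and gamma clusters, stayed below the filter, with day means from 0.0843 to 0.26 FPKM.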

How the data were processed

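RNA was measured in 22 libraries. Per the submitters' processing notes, RSEM, with no version, and the mm9 build were used; other steps are not given by any source used here. A table with a column per library was deposited by the authors; its sums and values fit FPKM, and so it is called here. FPKM keep no counts, and relative depth could not be settled from the low values; read totals and the 32 ATAC libraries were not used here. Libraries were grouped by the day in their titles. Symbols were matched to RefSeq (57 of its 58 clustered protocadherin symbols), and RefSeq's GRCm38.p6 table served for names and gene order only; Pcdha10 was not analysed here.

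Deposited FPKM were put on the log2(FPKM + 1) scale, which understates changes of low genes, and tested by limma (version 3.58.1, R 4.3.3). A group-means model with empirical Bayes trend covered all 22 libraries (17 residual degrees of freedom) and 14982 genes; a gene needed 1 FPKM in 3 libraries. Tests were 2-sided, in 7 comparisons, adjusted by Benjamini-Hochberg and called under 0.05; the script was tested on simulated data. Sums over members carry no test. Named genes were, per cluster, the 3 with the highest mean, the C-type genes, the 2 called genes with the largest change in each direction per step, those nearest the filter, and up to 2 called genes of each list per direction and step; the text gives a selection of these and some others that fill a range or a position. The members, the lists and this rule were chosen with earlier results of these data known. Same-numbered replicates did not pair: of 34 such pairs 2 had a correlation over 0.1. Alternatives were a pseudocount of 0.1, no filter, rescaling to the same sum, quantile normalization, no trend, only the days compared, the replicate block, each day-0 set and leaving out each library.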

Additional observations from a re-analysis of the deposited data

Results flagged for a closer look

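Among 55 sets of 4 to 7 libraries in which a member or cluster sum reached 1 FPKM, 2 held a library far from the others of its day by Dixon's criterion, which chance meets in about 1 of 20 sets. Pcdhb2 measured 1.59 FPKM in day-20 replicate 2, against 3.01 to 3.11 in the other libraries of that day. Pcdhb20 measured 2.21 FPKM in day-20 replicate 4, against 1.72 to 1.80.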

How the results depend on the processing

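Of counts over the 52 members, those called higher from day 0 to day 2 went from 14 to 23 with a pseudocount of 0.1, and those called lower from 7 to 11 under quantile normalization. From day 4 to day 10, members called lower went from 3 to 1 with that pseudocount or with libraries rescaled to the same sum, and to 11 under quantile normalization. From day 10 to day 20, members called higher went from 2 to 1 with the pseudocount and under quantile normalization. Called lower than at day 0 were 1 in place of 3 at day 4 with rescaling, 2 in place of none at day 10 and 5 in place of none at day 20 under quantile normalization. At day 20 it was 1 with the replicate block, 1 against day-0 replicates 1 to 3, and 0 to 1 when single libraries were left out, the 1 being without day-0 replicate 6. The block changed no other count by over 1.5 times; 2 of the 22 libraries correlated best with their own number, and correlations of same-numbered libraries ran from -0.15 to 0.22.

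The cluster sums follow as log2(sum + 1) differences, as deposited, rescaled to the same sum and quantile normalized where these moved them. For alpha, day 4 against day 2 gave 3.15, 3.29 and 3.30, day 10 against day 4 gave 1.64, 1.81 and 0.83, and day 20 against day 10 gave -1.33, -1.52 and -1.71. Against day 0, alpha gave 3.30 and 3.42 (rescaled) at day 4, 4.94, 5.23 and 4.20 at day 10, and 3.61 and 2.50 (quantile) at day 20. For beta, the steps gave 4.55, 4.77 and 4.25, then 0.35, 0.51 and -0.0651 (0.36 with genes below the filter), then -1.19, -1.38 and -1.64. Against day 0, beta gave 5.66, 5.80 and 5.34, then 6.02, 6.31 and 5.28, then 4.83 and 3.64 (quantile). For gamma, day 2 against day 0 gave -0.03, -0.37 under quantile normalization, 0.0860 against day-0 replicates 4 to 7, 0.00107 without day-0 replicate 1 and 0.00179 without replicate 2; with single libraries left out it ran from -0.0626 to 0.00179. The later gamma steps gave 1.22, 1.5 and 0.91, then 1.41, 1.57 and 1.2, then -0.17, -0.36 and -0.29. Against day 0, gamma gave 1.19, 1.46 and 0.55, then 2.60, 3.03 and 1.75, then 2.43, 2.66 and 1.46. The cause was not tested.

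Rescaling moved the median change of all genes from 0.01 to 0.22 at day 4, from 0.07 to 0.20 at day 10 and from -0.02 to -0.17 at day 20, each against the day before. It moved the share of higher among called genes from 52.8% to 68.4%, from 56.2% to 66.3% and from 49.4% to 37.1%. Against day 0 that share was 59.8% at day 10, 70.7% rescaled and 48.8% quantile normalized, and 60.9% at day 20, 47.8% quantile normalized. With no filter, 54 of 57 genes were called higher from day 2 to day 4 and 51 lower from day 10 to day 20. Without read counts, the precision of values under 1 FPKM is unknown, which limits most alpha and beta values of days 0 and 2.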
